A study of Homo sapiens with 6 samples.

Results

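Genes of sterol synthesis, of sterol uptake and export, and of the SREBP control system were compared in a lymphoma line between a hairpin against PRDM11 and a scrambled hairpin. The 36 genes were taken by name from a list of pathway members, and each had 1 row among the 34675 genes of the deposited comparison. U2932 is an established human line derived from diffuse large B cell lymphoma. Both groups were U2932 cells infected with a hairpin plasmid and kept in puromycin for 3 days, 3 samples with ShPRDM11 and 3 with ShScramble. PRDM11 encodes a PR domain protein of transcription and chromatin control, and the comparison asks which genes respond to its depletion. One cell line and 1 hairpin plasmid were used for the knockdown, so an effect of that plasmid apart from PRDM11 cannot be told apart. The deposited values name the conditions A and B, and no header or label ties either to a hairpin, so all differences are stated as condition A against condition B, with log2 A/B for the log2 ratio of their means.

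Cholesterol is made from acetyl-CoA by the mevalonate pathway, which ends in farnesyl diphosphate, and by a second series of enzymes that build squalene, close the rings and trim the sterol. SREBP transcription factors, held in the endoplasmic reticulum by SCAP and INSIG proteins when sterol is plentiful, are cut by 2 proteases in the Golgi when it is scarce and then switch on these enzymes and the uptake of lipoproteins. LXR receptors act in the other direction, on export genes and on MYLIP, which marks lipoprotein receptors for degradation. Dividing lymphocytes need this pathway for membranes and for the lipid anchors of small GTPases.

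The reads of single libraries were recovered from the deposited condition means, and 35 of the 36 genes had values for all 6 libraries. Libraries are numbered within a condition by falling size factor, and these numbers are not the replicate numbers of the labels. The recovered reads were 38626218, 32691871 and 24998752 in condition A and 34708852, 32841637 and 29572564 in those of condition B, from rows that hold at least 73.3% of the summed means of each condition. Whether the replicates were grown separately is not given by the labels, so the spread behind the p-values could be technical. Over 8578 genes with a mean of at least 500, log2 values deviated from their condition's mean with an SD of 0.17 and 0.14 in libraries 3 and 1 of condition A and 0.13 in library 1 of condition B. The SD was 0.059 to 0.077 in the other 3 libraries. PRDM11 held 268, 272 and 323 normalised reads in condition A and 565, 516 and 545 in condition B, with no overlap, and its log2 A/B was -0.91 (DESeq adjusted p = 1.76e-08 per the authors' deposited table). Which condition held the hairpin was not inferred from these values. All 8 B cell markers examined were detected, with summed means of 225294 and 195104, and the 3 T cell and 4 myeloid markers with a row each had a mean under 50. EPCAM, an epithelial surface marker, had means of 1285 and 1242 in conditions A and B per the authors' deposited table. The other stromal and epithelial markers examined were low. KRT8, a keratin gene, had means of 1.59 and 0.305 in conditions A and B, and COL1A1 had 52.7 and 61.3. COL1A2 and PDGFRB each had a mean under 50.

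Of the 36 sterol genes, 16 were lower in condition A and 0 were higher at a DESeq adjusted p under 0.05 per the authors' deposited table. Across all rows, 1.57% of genes were called lower and 0.966% higher, and among the 13565 genes with a mean of at least 50 the shares were 3.86% and 2.18%. Of the 36 sterol genes, 34 were above that mean. The log2 ratio of condition A to condition B was below 0 for 32 of the 36, with a median of -0.39, against a median of 0.00 over the genes with a mean of at least 50. All called differences were moderate: condition B exceeded condition A by 1.32-fold to 1.92-fold, 7 of the 16 by at least 1.5-fold and 0 by 2-fold. The limma test of the recovered reads, where 5.37% of genes were called lower, called 21 of the 34 sterol genes it tested lower, including all 16. Without library 1, 2 or 3 of condition A it called 19, 13 and 23 of the sterol genes lower, where 7.4%, 1.51% and 6.11% of all genes were lower. Without library 1, 2 or 3 of condition B it called 17, 7 and 10, where the shares of all genes were 3.44%, 1.25% and 1.36%. Of the 16 deposited calls, the limma call of MVK was lost without library 2 of condition A and without any 1 library of condition B. Those of STARD4 and SOAT1 were lost without library 2 of condition A, library 2 of condition B or library 3 of condition B. CYP51A1, LSS and MSMO1 were lost without library 2 or 3 of condition B, and DHCR7, GGPS1 and SQLE without library 2 of condition B. NR1H2 was the 1 sterol gene called higher without library 1 of condition A, where 6.08% of all genes were. Without library 3 of condition A and library 1 of condition B together, chosen after seeing the data, 25 were lower and 1 higher, where 13.4% and 12.8% of all genes were. In bulk RNA, fewer cells of a kind and less RNA per cell cannot be told apart.

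**Figure D1:**
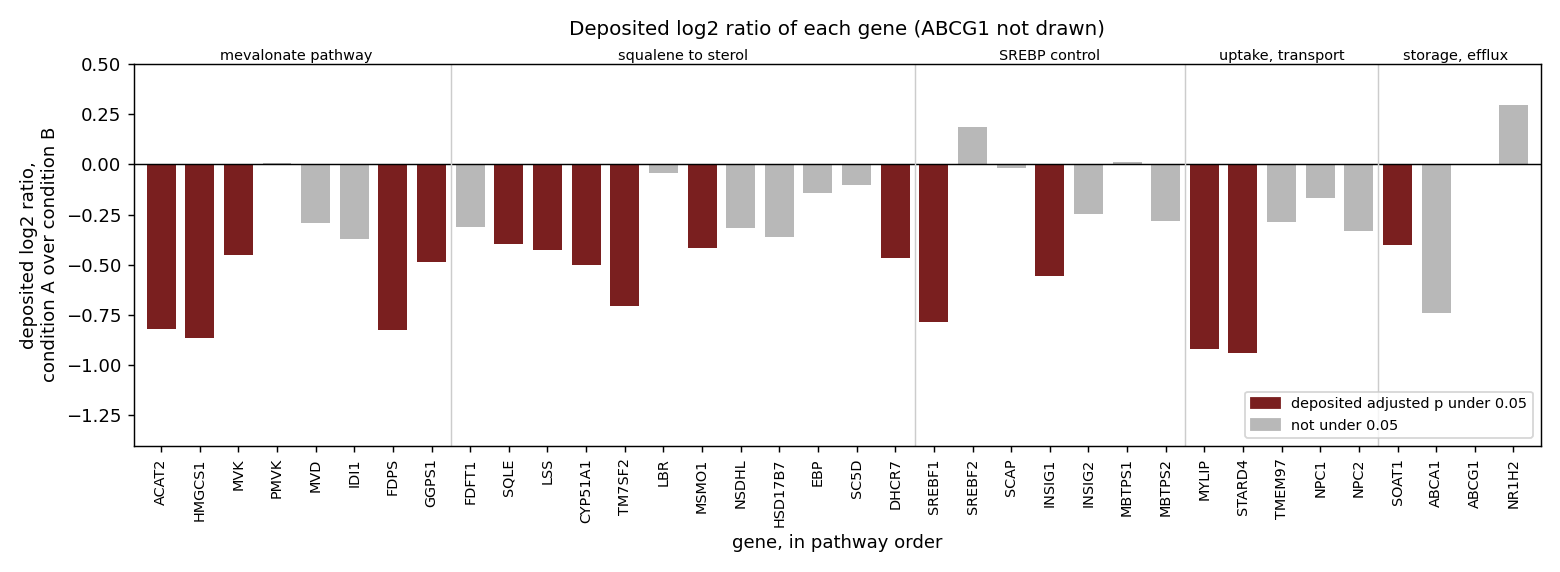
Deposited log2 ratio of condition A over condition B (y axis) for the sterol genes in pathway order (x axis). Dark bars mark the 16 genes with a deposited adjusted p under 0.05, all below 0, and grey bars the others. ABCG1 is not drawn because it had 1 read in condition A.

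The library values describe the same reads as the calls, without a fit, and are not separate support for them. For means above 10000 the band set on the splits also limits the spread within a condition. In 26 of the 35 genes with 6 library values, every library of condition A lay below every library of condition B, and in 0 did every library lie above. Among genes whose mean reached 50, 18.2% were separated in that downward direction. The sets differ, because the 26 include ABCG1 and the 35 also ABCA1, whose means were under 50. The share separated upward was not counted, so the 0 has no such figure beside it. All 16 called genes were among the 26, as were 10 of the 19 that were not called, ABCG1 included. Relative to the mean of the 6 libraries, the median log2 value of the sterol genes was -0.24, -0.12 and -0.22 in libraries 1, 2 and 3 of condition A. In condition B the same medians were 0.16, 0.26 and 0.17, over 31 genes with a mean of at least 500. The median was below 0 in each library of condition A and above 0 in each of condition B. These signs follow in large part from the lower means of most of the genes in condition A. 

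**Figure D2:**
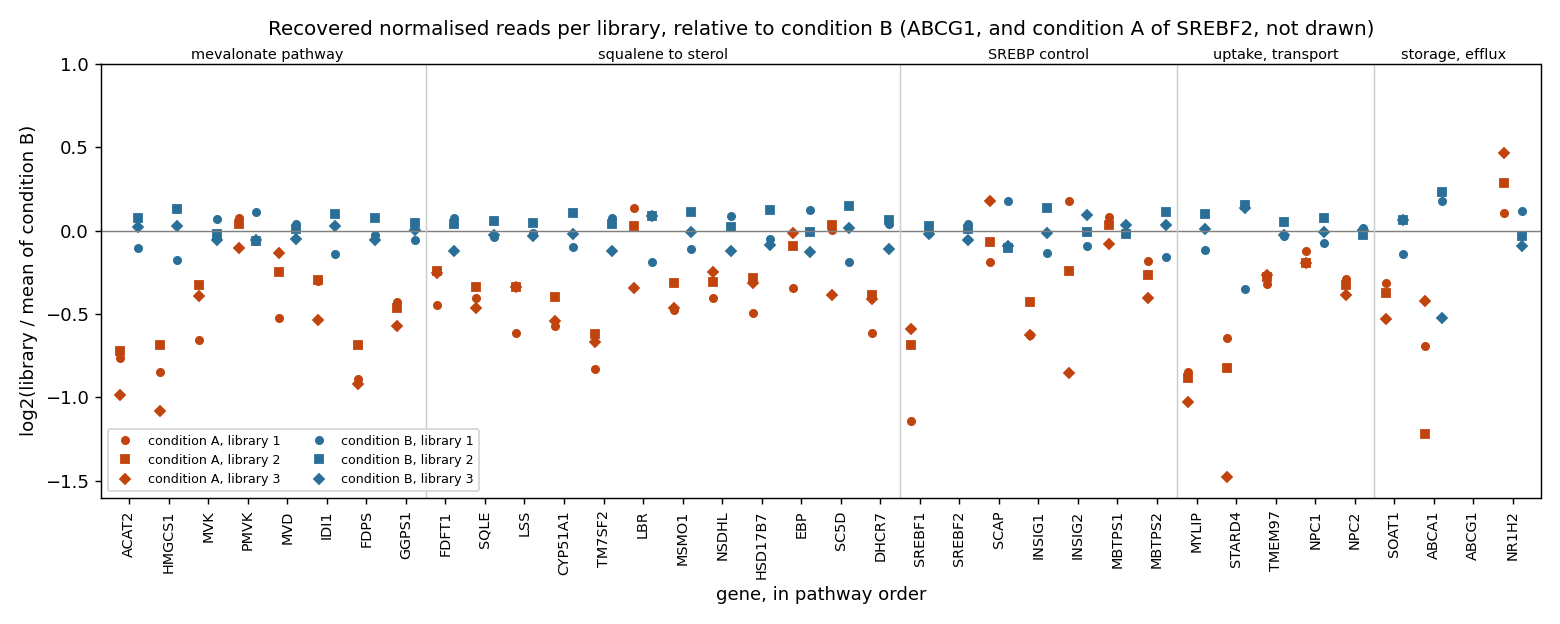
Recovered normalised reads of each library divided by the mean of condition B, on a log2 axis (y), for the genes in pathway order (x). Orange points are the libraries of condition A and blue points those of condition B. ABCG1 and condition A of SREBF2 are not drawn. In 26 of 35 genes, counting ABCG1, every library of condition A lay below every library of condition B.

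Mevalonate pathway genes gave 5 calls, all lower, among 8, with a median log2 ratio of -0.47. FDPS, which makes farnesyl diphosphate, had 3298, 3796 and 3219.6 normalised reads in condition A and 5997, 6422 and 5867 in condition B. Its log2 A/B was -0.83 per the authors' deposited table, and the deposited p implied a standard error of 0.12 (DESeq adjusted p = 1.39e-09). The conditions were far apart relative to the spread within each. HMGCS1, the synthase that makes HMG-CoA, had 7106, 7958 and 6059 in condition A and 11322, 14018 and 13079.8 in condition B. Its log2 A/B was -0.86 with an implied standard error of 0.15 per the authors' deposited table (DESeq adjusted p = 1.33e-06). ACAT2, the cytosolic thiolase that joins acetyl-CoA units at the start of the pathway, had 2392, 2463 and 2047 in condition A and 3769.5, 4274 and 4119 in condition B. Its log2 A/B was -0.82 with an implied standard error of 0.12 per the authors' deposited table (DESeq adjusted p = 8.23e-09). These 3 genes are not adjacent: ACAT2 and HMGCS1 act at the entry of the pathway and FDPS near its end.

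The kinase, decarboxylase and isomerase steps lie between them. MVK, mevalonate kinase, was called with a log2 A/B of -0.45 per the authors' deposited table, and its libraries held 1676, 2109 and 2012 against 2775, 2607 and 2541. Its limma adjusted p was 0.0206 with all libraries and 0.0501 without library 2 of condition A, and 0.06, 0.0878 and 0.0701 without library 1, 2 or 3 of condition B. PMVK, the next kinase, had a log2 A/B of 0.01 (1956, 1904 and 1724 against 2006, 1772 and 1779.7), and its libraries overlapped. MVD, the decarboxylase, and IDI1, the isomerase, had log2 A/B values of -0.29 and -0.37 and DESeq adjusted p of 0.13 and 0.0687 per the authors' deposited table, with the libraries of condition A below those of condition B in both. GGPS1, which extends farnesyl to geranylgeranyl diphosphate for protein prenylation and so leaves the sterol route, was called with a log2 A/B of -0.49 per the authors' deposited table. Its libraries held 1355, 1326 and 1229 in condition A against 1757, 1889 and 1831.

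Enzymes from squalene to cholesterol gave 6 calls, all lower, among 12, and all 12 log2 ratios were below 0, with a median of -0.38. TM7SF2, one of the sterol C14 reductases, differed most, with 815, 940.1 and 909.7 normalised reads in condition A and 1524, 1485 and 1332 in condition B. Its log2 A/B was -0.70 with an implied standard error of 0.12 per the authors' deposited table (DESeq adjusted p = 2.04e-06). LBR, the lamin B receptor, carries the same reductase activity in the inner nuclear membrane. It had 16212, 15009.6 and 11607 in condition A and 12918, 15635 and 15632 in condition B, so its libraries overlapped, and its log2 A/B was -0.04 per the authors' deposited table (DESeq adjusted p = 1). For LBR, with a mean above 10000 in condition A, only splits with each library within 0.8 to 1.25 times the mean were searched. The split given is the one found there, and splits outside that band were not looked for. Whether TM7SF2 and LBR differ from each other in their response was not tested.

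DHCR7, which makes cholesterol from 7-dehydrocholesterol, had 6412, 7514 and 7372 normalised reads in condition A and 10064, 10246 and 9104 in condition B, a log2 A/B of -0.47 per the authors' deposited table (DESeq adjusted p = 0.00256). CYP51A1, the lanosterol demethylase, had 553, 623 and 564 against 768, 884 and 811, a log2 A/B of -0.50 per the authors' deposited table (DESeq adjusted p = 0.00771). In both, the highest library of condition A was below the lowest of condition B. LSS, which closes the lanosterol rings, SQLE, the epoxidase before it, and MSMO1, a C4 methyl oxidase, were called with log2 A/B values of -0.42, -0.40 and -0.42 per the authors' deposited table. FDFT1, squalene synthase and the first committed sterol step, had a log2 A/B of -0.31 and was not called (DESeq adjusted p = 0.109 per the authors' deposited table), nor were NSDHL at -0.32 and HSD17B7 at -0.36, which complete C4 demethylation. In NSDHL and HSD17B7 the libraries of the 2 conditions did not overlap, and those of FDFT1 did not under the split chosen as for LBR. The values of SQLE and LSS in condition A, whose means were also above 10000, rest on the same band. In condition B, means above 10000 were searched in the same band only. This covers HMGCS1, IDI1, FDFT1, SQLE, LSS, LBR, INSIG1 and SREBF2. EBP, the sterol isomerase, and SC5D, the C5 desaturase, had log2 A/B values of -0.14 and -0.10 per the authors' deposited table, and their libraries overlapped.

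Among 7 genes of SREBP control, SREBF1 and INSIG1 were lower and the other 5 were not called. SREBF1, which encodes the SREBP-1 isoforms, had 4304, 5905 and 6305 normalised reads in condition A and 9381, 9682 and 9365 in condition B. Its log2 A/B was -0.78 with an implied standard error of 0.12 per the authors' deposited table (DESeq adjusted p = 9.9e-09). Library 1 was the lowest of condition A, and without any 1 library the log2 ratio lay between -0.89 and -0.63. SREBF2, which encodes SREBP-2, the isoform best known for driving cholesterol synthesis, had a mean of 31965 in condition A and 28080.4 in condition B per the authors' deposited table, a log2 A/B of 0.19 (DESeq adjusted p = 0.892). Its libraries of condition B held 28897, 28323 and 27021, and those of condition A could not be resolved from so large a mean.

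INSIG1, a retention protein that is itself an SREBP target, had 13440.1, 15419 and 13484 normalised reads in condition A and 18924, 22798 and 20558 in condition B. Its log2 A/B was -0.56 per the authors' deposited table (DESeq adjusted p = 0.000201). The split of condition A for INSIG1 was searched in the same band as for LBR. INSIG2, the related retention protein, was low, with 298, 222 and 146 in condition A and 247, 262 and 281 in condition B. Its libraries overlapped, and its log2 ratio of -0.25 had a DESeq adjusted p of 1 per the authors' deposited table. SCAP, the escort protein, and MBTPS1, the first protease, had log2 A/B values of -0.02 and 0.01 per the authors' deposited table. MBTPS2, the second protease, had -0.28 (DESeq adjusted p = 0.431), with 969, 917 and 832 in condition A just below 985, 1189 and 1127 in condition B.

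**Figure D3:**
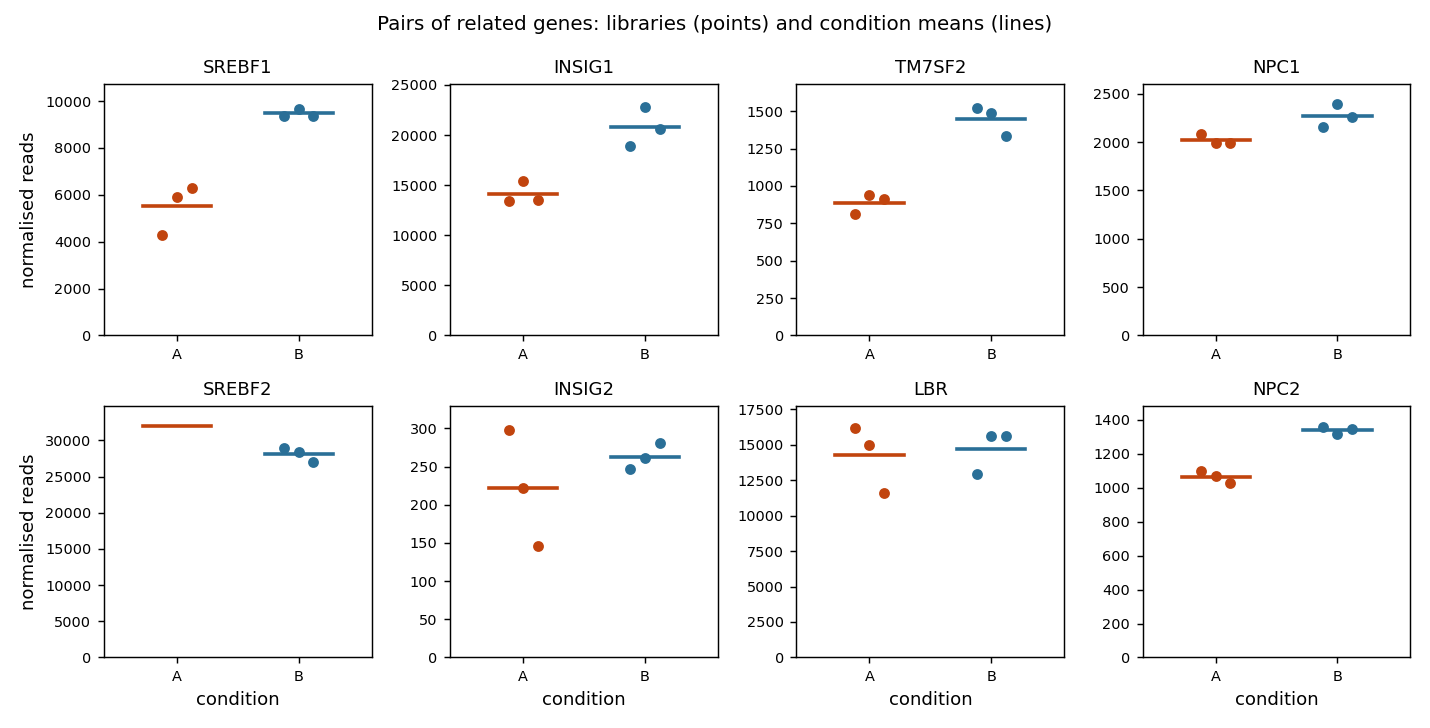
Normalised reads (y axis, from 0) in condition A and condition B (x axis) for 4 pairs of related genes, with points for recovered libraries and lines for condition means. SREBF1, INSIG1 and TM7SF2 were called lower in condition A and SREBF2, INSIG2, LBR, NPC1 and NPC2 were not, although the libraries of NPC1 and NPC2 do not overlap.

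Uptake and intracellular transport gave 2 calls among 5. MYLIP, the LXR-induced ubiquitin ligase that removes lipoprotein receptors, had 362, 352 and 319 normalised reads in condition A and 600.3, 697 and 654 in condition B. Its log2 A/B was -0.92 with an implied standard error of 0.14 per the authors' deposited table (DESeq adjusted p = 2.3e-08). MYLIP is known to act against uptake, and its libraries were far apart between the conditions. STARD4, a soluble sterol transfer protein, had the largest called difference, a log2 A/B of -0.94 per the authors' deposited table, but a wide implied standard error of 0.28 (DESeq adjusted p = 0.039). Its libraries held 2249.7, 1987 and 1262 in condition A and 2767, 3913 and 3874 in condition B, and library 3 of condition A and library 1 of condition B were the lowest of their conditions and among the 3 with the widest spread over all genes. Without any 1 library its log2 ratio lay between -1.11 and -0.73. Its limma adjusted p was 0.0183 with all libraries and 0.0508 when library 2 of condition A was left out. Leaving out library 2 or 3 of condition B gave 0.0886 and 0.074.

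TMEM97, the sigma-2 receptor, which binds NPC1, had 6177, 6359 and 6416 against 7527, 7998 and 7574, a log2 A/B of -0.29 that was not called (DESeq adjusted p = 0.226 per the authors' deposited table). NPC1 and NPC2, the membrane and soluble proteins that move cholesterol out of lysosomes, had log2 A/B values of -0.17 and -0.33 per the authors' deposited table, and their DESeq adjusted p were 0.901 and 0.175. NPC2 held 1098, 1071 and 1027 in condition A and 1357, 1319 and 1347 in condition B. NPC1 held 2084, 1987 and 1986 against 2157, 2391 and 2260.4. In these 3 genes the conditions did not overlap, and the differences were small.

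Of the storage and efflux genes, SOAT1, which esterifies cholesterol for storage, was lower, with 2831, 2719.9 and 2438 against 3199, 3684 and 3675 and a log2 A/B of -0.40 per the authors' deposited table (DESeq adjusted p = 0.0447). NR1H2, which encodes LXR-beta, had the highest log2 ratio of the 36, 0.30, and was not called (DESeq adjusted p = 0.469 per the authors' deposited table). Its libraries held 5048, 5724 and 6485 in condition A and 5083, 4581 and 4402 in condition B and overlapped. The sterol exporters were barely expressed. ABCA1 had 17, 10 and 13 reads in condition A and 28, 28 and 15 in condition B, before scaling, and a log2 A/B of -0.74 that was not called (DESeq adjusted p = 0.569 per the authors' deposited table). ABCG1 had 1, 0 and 0 reads against 4, 2 and 3, too few for a ratio.

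**Figure D4:**
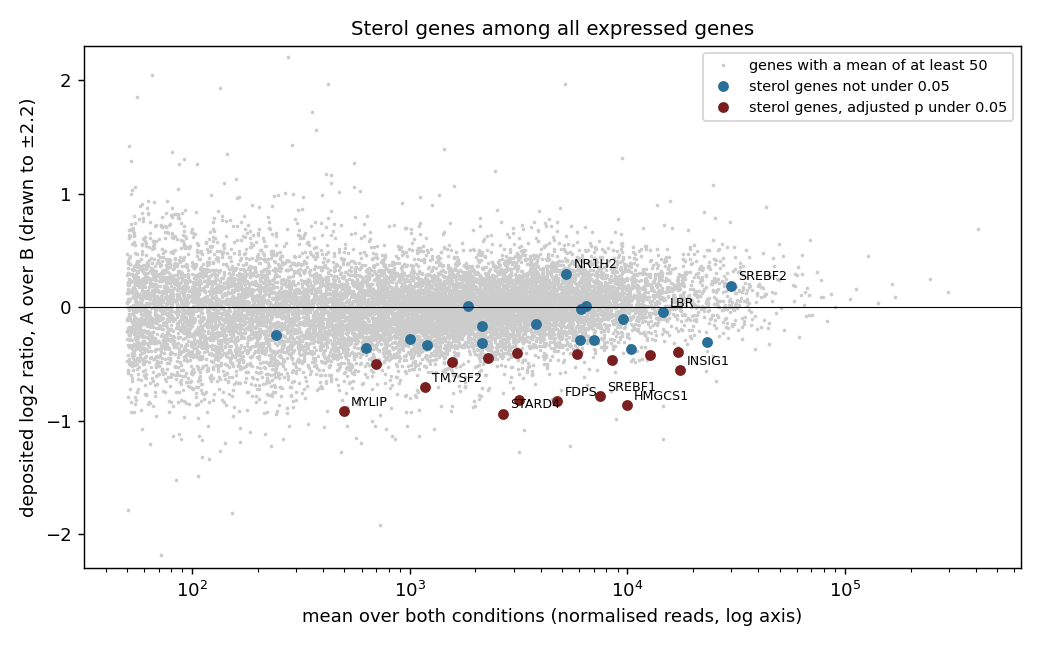
Deposited log2 ratio of condition A over condition B (y axis, points beyond 2.2 drawn at the edge) against the mean over both conditions (x axis, log scale) for all 13565 genes with a mean of at least 50 (grey). The 34 sterol genes above that mean lie mostly below 0, the 16 called ones (dark red) at -0.94 to -0.40.

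The library with the lowest value within a condition differed between genes. In condition A library 1 was the lowest for 16 and library 3 for 17 of the 33 genes with 6 library values whose mean reached 50, and library 2 for 0. Those lowest in library 3 included ACAT2, HMGCS1, IDI1, FDPS and STARD4, and those lowest in library 1 included MVD, LSS, TM7SF2, DHCR7 and SREBF1. In condition B library 1 was the lowest for 17, library 3 for 12 and library 2 for 4. The same shares over all genes were not counted. Over 8578 genes, libraries 1 and 3 of condition A also deviated more from their condition's mean (SD 0.14 and 0.17) than library 2 (0.059). The coefficient of variation had a median of 8.01% in condition A and 7.16% in condition B, with the highest values at 34.2% for INSIG2 in condition A and 18.5% for STARD4 in condition B.

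Promoter sequences of 32 of the 36 genes were matched by symbol in RefSeq (build GRCh38.p14), leaving ACAT2, FDFT1, SQLE and ABCG1 unmatched. The 250 bases before each gene start were searched on both strands for the sterol response element letters TCACNCCAC, the CCAAT box (ATTGG on the other strand), to which NF-Y binds, and the GC box GGGCGG, to which Sp1 binds. Both factors are known partners of SREBPs. The promoters shown are the first 4 of the called genes by p with an entry, and that of SREBF2, added because it alone held the response element letters. Capitals mark the CCAAT boxes and those response element letters, each sequence running 5′ to 3′ on the gene's strand.
FDPS, chr1:155308616-155308865, plus strand: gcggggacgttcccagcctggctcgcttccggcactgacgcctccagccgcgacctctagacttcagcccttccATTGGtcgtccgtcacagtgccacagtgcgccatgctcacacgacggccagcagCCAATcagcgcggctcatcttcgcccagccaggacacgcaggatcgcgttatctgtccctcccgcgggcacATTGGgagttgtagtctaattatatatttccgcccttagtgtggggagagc
SREBF1, chr17:17836987-17837236, minus strand: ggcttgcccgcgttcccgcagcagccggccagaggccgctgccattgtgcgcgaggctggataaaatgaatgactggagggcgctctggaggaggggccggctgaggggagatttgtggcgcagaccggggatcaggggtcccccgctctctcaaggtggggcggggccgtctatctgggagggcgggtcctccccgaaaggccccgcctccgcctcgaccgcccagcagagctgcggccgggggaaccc
MYLIP, chr6:16128836-16129085, plus strand: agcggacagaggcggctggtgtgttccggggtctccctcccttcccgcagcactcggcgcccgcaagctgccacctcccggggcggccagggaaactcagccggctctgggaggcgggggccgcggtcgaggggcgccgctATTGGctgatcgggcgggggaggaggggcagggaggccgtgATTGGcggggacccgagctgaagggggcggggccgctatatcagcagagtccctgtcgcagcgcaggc
HMGCS1, chr5:43313413-43313662, minus strand: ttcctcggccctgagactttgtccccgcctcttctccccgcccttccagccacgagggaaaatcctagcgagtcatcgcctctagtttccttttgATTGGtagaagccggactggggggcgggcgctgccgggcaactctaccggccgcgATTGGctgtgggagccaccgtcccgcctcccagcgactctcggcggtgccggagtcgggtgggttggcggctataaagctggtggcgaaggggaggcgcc
SREBF2, chr22:41832855-41833104, plus strand: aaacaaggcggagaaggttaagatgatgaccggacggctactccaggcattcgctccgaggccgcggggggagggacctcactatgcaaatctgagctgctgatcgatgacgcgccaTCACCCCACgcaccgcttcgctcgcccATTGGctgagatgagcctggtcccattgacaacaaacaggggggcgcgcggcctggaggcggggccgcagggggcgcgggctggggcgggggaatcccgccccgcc

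A CCAAT box stood in 11 of the 14 called genes with an entry and in 8 of the 18 that were not called, 78.6% and 44.4%. The box stood in 11240 of all 35116 promoters and in 35.8% of the 8498 whose genes had a mean of at least 50. FDPS had 3 such boxes, HMGCS1 and MYLIP 2 each, MVK and NSDHL 5 each, and SREBF1 0. A GC box stood in 13 of the 14 and in 14 of the 18, against 68.1% of the promoters of genes whose mean reached 50. The response element letters were in 1 of the 32, SREBF2, and in 0.883% of all promoters. Only the letters TCACNCCAC were searched, so a response element that departs from them would have been missed. Their absence, as in FDPS, HMGCS1 and INSIG1, does not show that a promoter lacks such an element. A match of letters is a description, and binding was not measured.

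Whether counting used strand was not given in the sources used here, and reads of overlapping genes could be shared. By GENCODE 29, exons of 17 of the 36 genes overlap those of another gene in the table, in 16 of 18 pairs on the opposite strand. In 2 of the pairs the partner was also called lower per the authors' deposited table. RUSC1-AS1, whose exons overlap 18.6% of the exonic bases of FDPS, had a log2 A/B of -0.72. MMAB, which lies head to head with MVK and overlaps 4.72% of its exonic bases, had -0.45. TCP1, which overlaps 9.23% of the exonic bases of ACAT2, had -0.10 and was not called. The part of shared reads in these differences was not tested.

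In hg19 the coding intervals place FDPS (ENSG00000160752) on chromosome 1 from 155279581 to 155290397, ACAT2 (ENSG00000120437) and MYLIP (ENSG00000007944) on chromosome 6 from 160183120 to 160199858 and from 16129554 to 16146979. HMGCS1 (ENSG00000112972) lies on chromosome 5 from 43291236 to 43299067, as does STARD4 from 110835587 to 110843131. The intervals place SREBF1 (ENSG00000072310) on chromosome 17 from 17715072 to 17740131 and INSIG1 (ENSG00000186480) on chromosome 7 from 155089996 to 155099977. TM7SF2 (ENSG00000149809) and DHCR7 (ENSG00000172893) are both on chromosome 11, from 64879488 to 64883522 and from 71139872 to 71155998.

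Genes around the pathway were described in 4 further lists, with median log2 A/B values between -0.29 and -0.01 among genes whose mean reached 50. Acetyl-CoA supply had 1 lower and 1 higher among 7. ACSS2, the acetyl-CoA synthetase of the cytosol and nucleus, had a log2 A/B of -0.52, and ACSS1, its mitochondrial relative, 0.70 per the authors' deposited table. The libraries of ACSS1 and ACSS2 did not overlap between conditions. Of 14 genes of the isoprenoid side branches, DOLK, dolichol kinase, was called higher at 0.54 and 0 were lower per the authors' deposited table.

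Of 20 sterol transfer and lipoprotein receptor genes, LIPA, the lysosomal acid lipase that frees cholesterol from lipoproteins, was lower at -0.69 and SCARB1, a lipoprotein receptor, at -0.37 per the authors' deposited table, and 0 were higher. Of 11 LXR target and oxysterol genes LPCAT3, a phospholipid acyltransferase, was called, with means of 1419 and 2513 and a log2 A/B of -0.82 per the authors' deposited table (DESeq adjusted p = 3.24e-09). Only 3 of these 11 had a mean of at least 50. Among all genes that reached this mean, 3.86% were called lower and 2.18% higher.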

How the data were processed

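Gene expression was measured by RNA sequencing in 6 samples of U2932 cells. The authors used STAR, HTSeq (0.5.4p5) and, for the comparison, DESeq (1.14.0), with the build hg19, per the submitters' processing notes. For annotation and strandedness, the setting was not given in the sources used here. The deposited table gives, per the file headers, condition means as a signal in reads divided by size factors, their fold, the log2 of that fold and p-values before and after adjustment, which the authors computed across all genes. The deposited log2 ratio is B over A and is given here with its sign turned. A second deposited file gives a score per coding interval, per the file headers, and only its intervals were used, with starts and ends counted from 1. The number of per-sample columns left out was 0.

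Calls use the adjusted p that the authors obtained with DESeq, at 0.05. An implied standard error is the log2 ratio divided by the normal z of its p, which is approximate. Each mean is a weighted sum of 3 whole numbers printed with up to 15 digits, so reads were recovered by an integer search. All splits were searched up to a mean of 1500, and above it splits with each library at 0.7 to 1.4 times the mean (0.8 to 1.25 above 10000), with a wider second search where none was found. Both conditions were recovered in 34366 rows. The 0.8 to 1.25 band holds for 94.8% of rows of condition A and 99.0% of rows of condition B with means of 1500 to 10000. A split resting on it may therefore be wrong. The recovered reads were tested with limma 3.58.1 in R 4.3.3 on log2(normalised reads + 1) for genes with a mean of at least 10. Both steps were tested on simulated data. For the integer search the simulated libraries varied less than libraries 1 and 3 of condition A, so the band was hardly tested. Depth, as recovered reads, ran from 24998752 to 38626218 per library.

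Samples were grouped by title. All 36 genes are accounted for, and library values are given for the 3 with the smallest p of each role and for related pairs; other library values were added after they were seen. Genes of the further lists are named where called. A result that needs a withheld item is not reported here. The genes and lists were chosen with earlier results of these data known. Alternatives were other thresholds, filters, pseudocounts and scalings, limma, and leaving out each library.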

Additional observations from a re-analysis of the deposited data

How the results depend on the processing

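The count of sterol genes lower in condition A was 16 and lay between 12 and 22 under other thresholds on the deposited adjusted p, adjustment over genes with a mean of at least 10 or 50, and limma with another pseudocount, no filter or scaling by total recovered reads, with 0 higher in each. The counts over all genes moved as well. The 12 came at a threshold of 0.01, where 324 of 34675 genes were lower and 181 higher. The 22 came from limma with scaling by total recovered reads, where 1111 of 17319 genes were lower and 593 higher. Leaving out 1 library from the limma test gave 7 to 23 lower and 0 to 1 higher, while the share of all genes called lower ran from 1.25% to 7.4%. The 7 came without library 2 and a count of 10 without library 3 of condition B, and the cause was not tested. Without library 3 of condition A and library 1 of condition B together, an alternative chosen after seeing the data, 25 were lower and 1, NR1H2, higher, where 13.4% of all genes were lower and 12.8% higher, against 5.37% lower with all libraries. NR1H2 was also the 1 called higher without library 1 of condition A, where 6.08% of all genes were higher (limma adjusted p = 0.0287, and 0.00422 to 0.312 over its other alternatives). None of the 16 called log2 ratios changed sign under any alternative run. The limma test called genes of smaller difference, and IDI1, FDFT1, NSDHL, NPC2 and TMEM97 were called lower by it and not per the authors' deposited table. No paired analysis was possible because the recovered libraries carry no replicate number of the labels. Depth limits ABCG1 and ABCA1, with at most 4 and 28 reads in a library.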
